A study of Mus musculus with 2 samples.

Results

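The genes of creatine kinase (Ckb, Ckmt1) and of creatine synthesis (Gatm, Gamt) were taken by name, 4 out of 14870 genes with an assembled locus in at least 1 of 2 RNA-seq libraries. Creatine phosphate stores energy that can be released quickly. Gatm (arginine:glycine amidinotransferase), a mitochondrial enzyme, joins the amidino group of arginine to glycine, and Gamt (guanidinoacetate N-methyltransferase) in the cytosol methylates the product to creatine. Ckb, the cytosolic brain-type creatine kinase, and Ckmt1, the ubiquitous creatine kinase of the mitochondrial intermembrane space, transfer phosphate between ATP and creatine. Osteoclasts are multinucleated cells of the monocyte and macrophage lineage that dissolve bone with proton pumps driven by ATP, and Ckb is known as a kinase that osteoclasts use in resorption.

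The cells came from the bone marrow of wild-type (WT) mice and were first kept for 2 days in M-CSF, the growth factor of macrophages and their precursors. The library labelled M came from cells given M-CSF alone, and the library labelled MR from cells given M-CSF together with RANKL, the cytokine that drives osteoclast differentiation, for the next 2 days according to the labels and 3 days according to the culture method, with no harvest day named for the RNA. No time in culture is given for M beyond the first 2 days, so the cells of M may have been harvested earlier than those of MR, and RANKL and time in culture cannot then be told apart. The dose of M-CSF was 20 ng/mL and that of RANKL 100 ng/mL, and the labels used here give no strain, age or number of mice. Each condition had 1 library, so no difference between M and MR below had a replicate check or a test, and each value describes these libraries.

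The aligned bases were 3.63 Gb in M and 2.98 Gb in MR, as read from the ratio of coverage to FPKM. Values are TPM, a transcript abundance scaled for length and library size that sums to 1000000 over the loci of a library. All 9 osteoclast markers, Acp5 and Ctsk among them, were higher in MR, with no locus for Calcr, Oscar, Dcstamp and Ocstamp in M, and their summed level was 126 TPM in M and 24993 TPM in MR. Of 6 macrophage markers, Adgre1 and Mrc1 were lower in MR by more than 1 on the log2 scale and 4 were within that limit, with a summed level of 4207 TPM in M and 3342 TPM in MR. Markers of other cells were found as well. The 7 neutrophil markers summed to 1362 TPM in M and 950 TPM in MR, and the 5 lymphoid markers to 7.46 and 7.04 TPM. The 4 megakaryocyte markers summed to 538 TPM in M and 72.9 TPM in MR, of which Pf4 had 505 and 38.4 TPM. Pf4 was lower by more than 1 on the log2 scale, while Itga2b, Gp9 and Ppbp were within that limit. The 8 stromal and osteoblast markers summed to 23.6 TPM in M and 37.7 TPM in MR, with 2 higher and 2 lower by that limit. The 4 mast cell and basophil markers summed to 6.97 TPM in M and 1.11 TPM in MR, and the 4 erythroid markers to 2.11 TPM in each. The part of these cells in the differences below was not tested. In bulk RNA, fewer cells of a type and less RNA per cell cannot be told apart.

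The 4 genes moved in opposite directions by role. Both creatine kinases were higher in MR and both enzymes of creatine synthesis were lower. A log2 ratio of MR to M was taken after adding 1 to each TPM, and 1 was used as the limit for calling a gene higher or lower. By this limit 2 of the 4 genes were higher and 2 were lower. Ckmt1 had no locus in M, and with 0 TPM there any level above 1 TPM in MR counts as higher. Of 13449 genes that had their own locus and at least 1 TPM in a library, 21.3% were higher and 13.2% were lower. The median log2 ratio of all these genes was 0.21. That of the 4 genes was 0.82, a value that falls between the pairs and describes none of them.

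**Figure D1:**
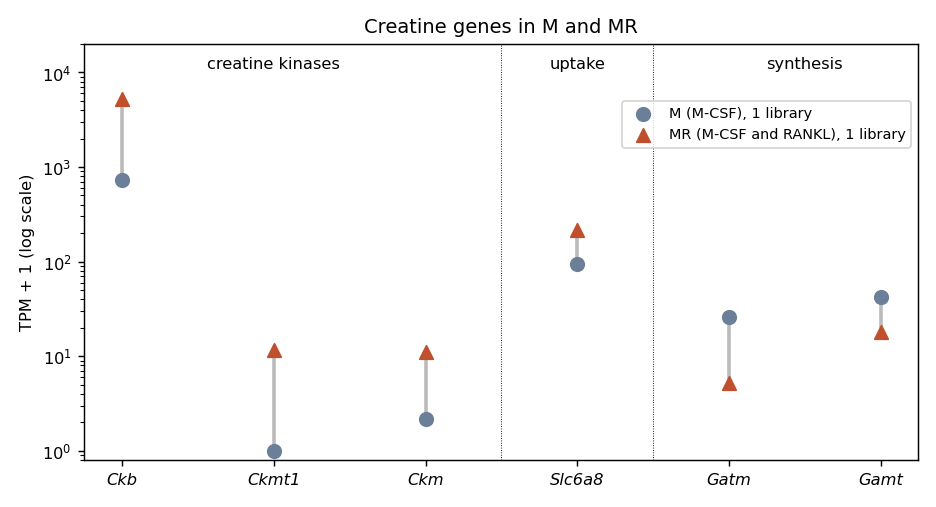
TPM + 1 on a log axis for the creatine kinases Ckb, Ckmt1 and Ckm, the creatine transporter Slc6a8 and the synthesis enzymes Gatm and Gamt, with a circle for the M library and a triangle for the MR library. The triangles lie above the circles for the kinases and the transporter and below them for Gatm (24.9 TPM in M, 4.17 TPM in MR) and Gamt (41.6 TPM in M, 17.2 TPM in MR).

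The promoter sequences of the 4 genes are shown because the kinases and the synthesis enzymes lie on opposite sides in this comparison. Each sequence holds the 250 bases before a RefSeq start on GRCm38.p6, the build of the read alignments, written 5′ to 3′ on the strand of the gene. The windows are chr12:111672339-111672588 on the minus strand for Ckb, chr2:121357526-121357775 on the plus strand for the upstream start of Ckmt1, chr2:121358360-121358609 on the plus strand for its downstream start, chr2:122611278-122611527 on the minus strand for Gatm, and chr10:80261013-80261262 on the minus strand for Gamt. Capitals mark matches on either strand to 6 motifs. These are TATAAA, which places the start of transcription in many promoters, and CCAAT, which NF-Y binds. TGANTCA is the site of AP-1 and CACGTG an E-box bound by MITF and TFE factors. Estrogen-related receptors bind AAGGTCA and NFAT factors bind GGAAA. No matches overlap in these windows. RefSeq starts and the starts of the coding transcripts used here are not always the same. The Gatm window includes the first 26 bases of Gatm-201, of which 15 lie in the M locus, and the Gamt window ends at the start of Gamt-202, upstream of the start of Gamt-201, near which the loci began. All 250 bases of the downstream Ckmt1 window are spanned by the MR locus.
Ckb: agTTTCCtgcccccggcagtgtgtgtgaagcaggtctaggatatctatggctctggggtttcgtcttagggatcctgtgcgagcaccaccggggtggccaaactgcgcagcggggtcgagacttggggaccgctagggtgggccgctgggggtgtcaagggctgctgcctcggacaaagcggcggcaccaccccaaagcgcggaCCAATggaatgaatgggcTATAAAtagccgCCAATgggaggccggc
Ckmt1 upstream start: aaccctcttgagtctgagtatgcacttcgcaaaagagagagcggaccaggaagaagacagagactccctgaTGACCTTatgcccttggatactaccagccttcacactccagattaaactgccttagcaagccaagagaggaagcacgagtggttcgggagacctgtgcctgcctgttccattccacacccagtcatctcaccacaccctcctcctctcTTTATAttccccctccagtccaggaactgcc
Ckmt1 downstream start: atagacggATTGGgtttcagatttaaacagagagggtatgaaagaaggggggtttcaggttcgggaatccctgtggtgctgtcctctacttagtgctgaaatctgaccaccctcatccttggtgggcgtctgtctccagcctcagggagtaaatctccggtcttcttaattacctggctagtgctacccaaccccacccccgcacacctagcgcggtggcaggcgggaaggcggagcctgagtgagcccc
Gatm: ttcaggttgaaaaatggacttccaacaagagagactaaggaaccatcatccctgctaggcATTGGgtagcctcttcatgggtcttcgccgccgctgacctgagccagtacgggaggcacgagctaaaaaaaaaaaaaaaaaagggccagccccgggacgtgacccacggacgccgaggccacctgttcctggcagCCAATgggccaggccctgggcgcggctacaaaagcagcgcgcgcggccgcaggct
Gamt: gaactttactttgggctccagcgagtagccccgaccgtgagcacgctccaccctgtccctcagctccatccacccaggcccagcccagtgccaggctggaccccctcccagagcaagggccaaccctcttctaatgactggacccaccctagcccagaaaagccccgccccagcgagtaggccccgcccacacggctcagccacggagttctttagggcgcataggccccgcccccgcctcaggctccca

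The Ckb window held TATAAA at 28 to 23 bases before the start, between CCAAT matches at 46 to 42 and 16 to 12 bases. One GGAAA match lay at the far end of the window, 248 to 244 bases before the start. The upstream Ckmt1 window held the reverse complement of TATAAA 31 to 26 bases before the start and that of AAGGTCA 179 to 173 bases before it. The downstream Ckmt1 window held 1 CCAAT match and the Gatm window 2, while the Gamt window, with the highest GC content of 66.8%, matched none of the 6 motifs. Neither TGANTCA nor CACGTG occurred in any of the 5 windows. Among 32817 RefSeq windows of the same length, not counting chromosome 18, TATAAA was found in 12.4%, CCAAT in 33.8%, AAGGTCA in 4.08%, GGAAA in 55.6%, TGANTCA in 6.75% and CACGTG in 6.02%. These matches describe letters in the windows and were not tested against the expression values.

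Ckb (ENSMUSG00000001270.9) was by far the most abundant of the 4 genes in both libraries. It lies on the minus strand of chromosome 12 (GRCm38, 111669361 to 111672338), and its coding transcript Ckb-201 has 8 exons and 1472 nt. Its level was 724 TPM in M and 5268 TPM in MR. The MR level was thus 7.28 times the M level, and the log2 ratio was 2.86. Ckb ranked 162nd of 13449 genes by level in M and 7th in MR, where it came after Ftl1, Ctsk, mt-Co1, Eef1a1, Fth1 and B2m. It made up 0.0724% of all TPM in M and 0.527% in MR. Of the 7 genes with at least the MR level of Ckb, 3 had a log2 ratio above 1, and only Ctsk and Ckb had one as high as that of Ckb. By log2 ratio Ckb was 381st among all genes.

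Read counts were not used here, so read pairs were estimated from FPKM, aligned bases and transcript length, at 300 bases per pair. Ckb had about 5808 pairs in M and 32241 in MR. The ratio from these pairs was 7.03, with a 95% counting interval of 6.84 to 7.23 (Wilson interval), and this ratio differs from that of TPM because the locus held 1433 of the 1472 bases of the transcript in M and 1385 in MR. Such intervals cover counting error only, and a difference between repeated cultures is not part of them.

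The reads of Ckb could in part be placed elsewhere. In Ckb-201 there are 1423 stretches of 50 bases, of which 21.7% also occur in Gm12892, a processed pseudogene on chromosome 4 (122008193 to 122009338), while Ckb-ps1 and Ckb-ps2 share only 3 and 5 of them. Gm12892 had a locus without a strand in MR, at 15.6 TPM, and none in M. Reads of Ckb and of this pseudogene cannot be told apart in the shared stretches, and their part in the level of Ckb was not tested. No locus was given to Ckb-ps1 or Ckb-ps2. For Ckmt1, Gatm and Gamt, 0 stretches of this length occurred in transcripts of other genes.

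Ckmt1 (ENSMUSG00000000308.14) was assembled in MR only. It lies on the plus strand of chromosome 2 (121357714 to 121363737) and had 10.5 TPM in MR, whereas no locus was assembled in M, which was set to 0 TPM. A ratio cannot be given against such a value, and the log2 ratio of 3.52 depends on the added 1. The MR locus corresponds to about 70 read pairs, with a Poisson interval of 54.6 to 88.4 pairs (8.18 to 13.3 TPM). In M, which had the larger number of aligned bases, 5% of the assembled loci were under 0.148 TPM and 58.7% were under the MR level of Ckmt1. A locus missing from M was found for 7.92% of the 13449 genes (at least 1 TPM in MR) and one missing from MR for 5.06%. Of 8673 genes with at least 10 TPM in a library, 1.40% had no locus in M. Ckmt1 is among the 8673 genes only through its MR level, and the interval of that level reaches below 10 TPM. Reads of Ckmt1 too few to be assembled would not appear in M.

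The position of the Ckmt1 locus bears on its starts. The annotation gives a transcript of 1518 nt that begins 834 bases upstream of another of 1620 nt, and both have the same start and stop codons. The 5′ end of the MR locus was 15 bases upstream of the first of these starts and 849 bases upstream of the second, and the locus thus reached the upstream first exon, whose promoter window is printed before the other. The locus held 99.3% of the 1518-nt transcript. The share of reads from each start is not given by the tables.

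**Figure D2:**
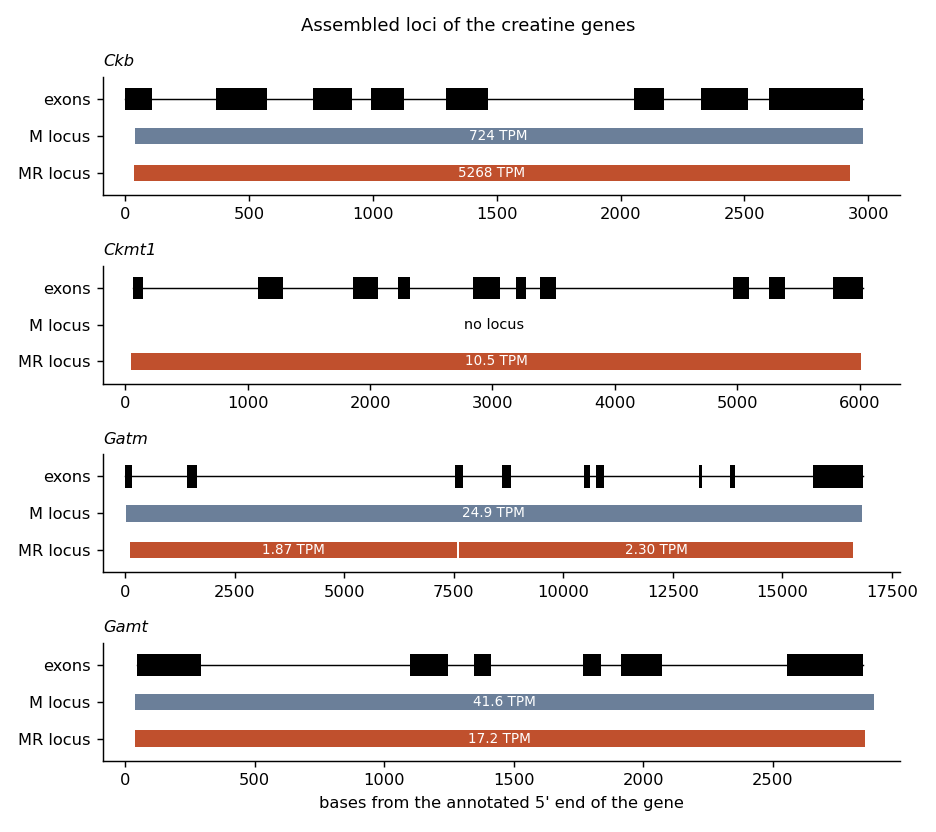
Extents of the assembled loci in M and MR below the exons of the coding transcript, in bases from the annotated 5′ end of each gene, with the TPM of each locus. Ckb and Gamt have 1 locus in each library, Ckmt1 has none in M, and Gatm has 1 locus in M and 2 in MR, separated by 52 bases.

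The kinase transcripts were almost entirely those of Ckb. The 4 creatine kinase genes of the mouse, Ckb, Ckm, Ckmt1 and Ckmt2, summed to 725 TPM in M and 5288 TPM in MR, and Ckb made up 99.8% of this sum in M and 99.6% in MR. Ckmt1 made up 0.198% and Ckm, the muscle-type kinase, 0.189% in MR. Ckmt2, the mitochondrial kinase of striated muscle, had no locus in either library.

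The Ckm locus had 1.15 TPM in M and 10.02 TPM in MR, a log2 ratio of 2.36. This locus was partial, holding 419 of 2913 exon bases of the gene in M and 757 in MR, and its 5′ end lay 12046 bases inside the gene in MR. The noncoding gene A930016O22Rik lies there on the opposite strand and shares 11.7% of the 50-base stretches of a Ckm transcript, so that without a strand-marked library, which the methods do not describe, reads of these genes cannot be told apart. Skeletal muscle markers were nearly absent. Of 7 such genes, Acta1, Myh1, Myh4, Tnnt3, Tnnc2 and Myl1 had no locus in either library, and Des had 0.595 TPM in M and 0.754 TPM in MR.

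Gatm (ENSMUSG00000027199.14), which catalyses the committed step of creatine synthesis, was lower in MR. It lies on the minus strand of chromosome 2 (122594467 to 122611303) with 9 exons in its coding transcript Gatm-201 of 2389 nt. In M a single locus spanned the gene, from 11 bases inside its 5′ end to 9 bases inside its 3′ end, at 24.9 TPM. In MR the gene was covered by 2 loci of 2.30 and 1.87 TPM, which met in exon 3 with a gap of 52 bases and held 71.5% and 13.1% of the coding transcript. Their sum was 4.17 TPM, and the log2 ratio of MR to M was -2.32.

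Because both loci belong to 1 transcript, their sum counts it more than once. Weighted by the exon bases of each locus, the level in MR was 2.25 TPM, and the M level was 11.1 times as high, against 5.97 times for the sum. This weighting was chosen after the data were seen. The estimated read pairs were 331 in M and 20 in MR, and by these pairs the level was 13.1 times higher in M (95% counting interval 8.35 to 20.4, Wilson). The direction was the same in each of these calculations, and the size of the difference rests on few reads in MR.

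Gamt (ENSMUSG00000020150.13), which completes creatine synthesis, was also lower in MR, by less. It lies on the minus strand of chromosome 10 (80258151 to 80261012) with 6 exons, and its locus held 100% of the coding transcript Gamt-201 in both libraries. Its level was 41.6 TPM in M and 17.2 TPM in MR. The M level was 2.42 times the MR level, the log2 ratio was -1.23, and the estimated read pairs of 228 and 75 gave a ratio of 2.40 (95% counting interval 1.85 to 3.11, Wilson). Of the 4 genes, Gamt was closest to the limit of 1, and its counting interval reached a log2 ratio of -0.89, which is within that limit. The 5′ ends of the loci were 5 bases upstream of the start of Gamt-201 in M and 7 bases upstream in MR, and 39 and 37 bases inside that of Gamt-202, so that they differed by only 2 bases between the libraries.

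In terms of their place among all genes, Gatm went from the 65.9th percentile of level in M to the 22.7th in MR, and Gamt from the 76.9th to the 53.4th. The log2 ratio of Gatm was the 340th lowest of 13449 and that of Gamt the 1312th lowest. These places use the sum of the 2 Gatm loci in MR, and with loci weighted by exon bases Gatm was at the 18.8th percentile in MR and its log2 ratio was the 148th lowest. Ckmt1 stood at the 41.6th percentile of level in MR, and its log2 ratio was the 205th highest. Among 8673 genes with at least 10 TPM in a library, a limit all 4 genes passed, 18.4% were higher and 11.3% were lower. Ckmt1 passed it in MR only, at 10.5 TPM, and its counting interval of 8.18 to 13.3 TPM reached below it. A log2 ratio above 2, as in both kinases, was found for 6.12% of these genes, and one below -2, as in Gatm, for 3.85%. For Ckmt1, set to 0 TPM in M, such a ratio follows from passing the limit in MR.

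**Figure D3:**
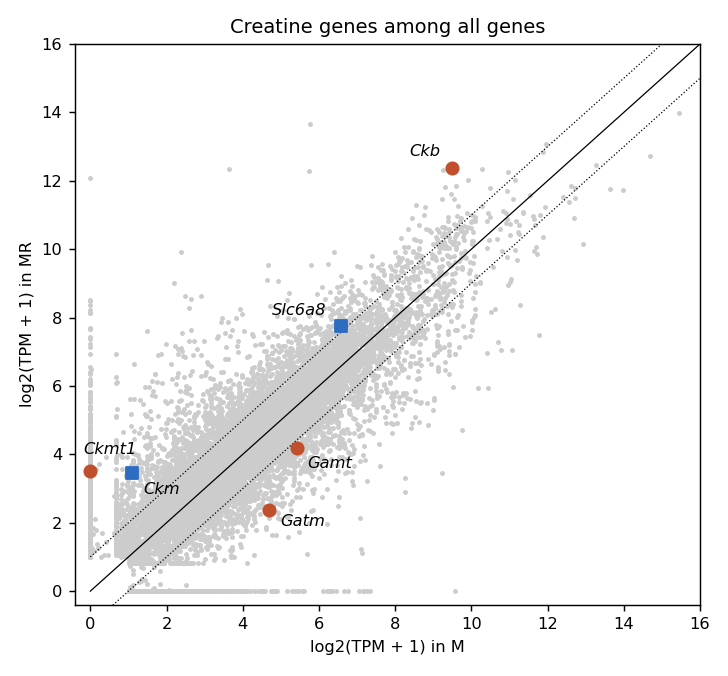
log2(TPM + 1) in M against that in MR for 13449 genes (grey), with Ckb, Ckmt1, Gatm and Gamt as red circles and Ckm and Slc6a8 as blue squares. The solid line marks equal levels and the dotted lines a log2 ratio of 1 in either direction. Ckb lies at 9.50 on the M axis and 12.4 on the MR axis, Ckmt1 on the left edge at 0 TPM in M, and Gatm and Gamt below the lower dotted line.

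Creatine can also be taken up from the medium. Slc6a8, the sodium-dependent creatine transporter on the X chromosome, had 94.0 TPM in M and 217 TPM in MR, a ratio of 2.30 and a log2 ratio of 1.20. It had a single locus of its own in each library, which held 99.4% of its exon bases in MR. Slc16a12, a transporter that releases creatine, had no locus in either library. Within a library the transporter therefore stood at 3.77 times the level of Gatm and 2.26 times that of Gamt in M, and at 51.9 and 12.6 times in MR. The summed level of Gatm and Gamt was 66.5 TPM in M and 21.4 TPM in MR. Ckb had 17.4 times the level of Gamt in M and 306 times in MR. Ratios to Gatm and sums with it use the sum of its 2 loci in MR.

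The genes with levels most like those of the 4 genes were named by distance over 2 values, log2(TPM + 1) in M and in MR, among protein-coding genes whose locus held no other gene. The 3 nearest to Ckb were the mitochondrially encoded mt-Cytb, mt-Atp8 and mt-Atp6, at distances of 0.253, 0.527 and 0.528. Those nearest to Gatm were Fads1, Icam2 and Tent5c, at 0.0512 to 0.150, and those nearest to Gamt were Lig1, Mcm3 and Amz2, at 0.0645 to 0.0925. Ifi202b, Fam57b and Sphk1, which also had no locus in M and 10.6 TPM in MR, were nearest to Ckmt1. With 2 libraries many genes share such a position, and the likeness is a description of level alone.

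A further 5 lists cover steps around the creatine system, with 63 genes in all. Of these, 51 had a value of at least 1 TPM in a library, and 15 (29.4%) were higher and 10 (19.6%) lower in MR, beside 21.3% and 13.2% of all genes. Both counts hold genes with no locus in 1 library, where the value was set to 0. Nme3 was covered by the locus of a different gene and was given no value. The list with Ckm, Ckmt2, Slc6a8 and Slc16a12 is described above. Its median log2 ratio of 1.78 rests on 2 measured genes, Slc6a8 and Ckm, the latter with a partial locus.

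Arginine and glycine are the substrates of Gatm. Of 13 measured genes that make, move or use them, 3 were higher, 4 lower and 6 within the limit, with a median log2 ratio of 0.38. These were 23.1% higher and 30.8% lower, beside 21.3% and 13.2% of all genes. The list holds genes that use or release arginine or glycine as well as genes that provide them, so its shares do not describe supply alone. Among the lower genes, Slc7a2 and Arg1 had low levels in M and no locus in MR, which was set to 0. The arginine importer Slc7a1 had 9.85 TPM in M and 40.2 TPM in MR. Slc7a2, another importer, had 2.62 TPM in M, as a sum of 3 fragments, and no locus in MR, and Slc7a7, part of a transporter that releases arginine, had 68.5 TPM in M and 32.5 TPM in MR. Slc7a1 and Slc7a2 thus differed in direction, though the low level of Slc7a2 in M rests on summed fragments. Ass1, which makes argininosuccinate from citrulline, had 142 TPM in M and 52.2 TPM in MR, while Asl, which splits it to arginine, had 48.4 and 49.7 TPM. Oat, which uses the ornithine that Gatm releases, had 58.2 TPM in M and 75.8 TPM in MR, and Arg1 had 1.22 TPM in M and no locus in MR. On the glycine side, the mitochondrial serine hydroxymethyltransferase Shmt2 was higher, with 21.2 TPM in M and 57.6 TPM in MR, as was the glycine transporter Slc6a9, with 2.06 and 5.79 TPM, each the sum of 2 fragments.

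Gamt takes its methyl group from S-adenosylmethionine. A list around the making, use and recycling of this donor had 11 measured genes, some of them in it only by likeness to Ahcy. Of these 11 genes, 2 (18.2%) were higher, 4 (36.4%) lower and 5 within the limit, with a median of -0.01. All genes had the same 21.3% higher and 13.2% lower as above. Mat2a, the enzyme that makes the donor outside the liver, had 51.3 TPM in M and 69.8 TPM in MR, and its partner Mat2b had 50.6 and 72.7 TPM. Ahcy, which removes the S-adenosylhomocysteine left by methylation, was higher, with 16.6 TPM in M and 37.4 TPM in MR. The next enzyme on the adenosine side, Adk, was lower, with 30.5 TPM in M and 9.48 TPM in MR. The Ahcy-like gene Ahcyl2, in the list only by this likeness, was lower as well, with 27.1 TPM in M and 9.20 TPM in MR. Of other enzymes that use the donor, Pemt had 1.74 TPM in M and 4.68 TPM in MR, Gnmt had 1.04 TPM in M and no locus in MR, and Nnmt had no locus. Gnmt counts as lower because its missing locus was set to 0. Mtr, which methylates homocysteine to methionine, had 9.99 TPM in M and 13.9 TPM in MR.

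Adenylate kinases, nucleoside diphosphate kinases and the carriers of the mitochondrial membranes move high-energy phosphate alongside creatine kinase. Of 17 measured genes for phosphate transfer and nucleotide exchange, 7 (41.2%) were higher, beside 21.3% of all genes, 1 (5.88%) was lower, beside 13.2%, and 9 were within the limit, with a median log2 ratio of 0.85. The cytosolic adenylate kinase Ak1 had 2.43 TPM in M and 33.5 TPM in MR. Ak4 and Ak5 had no locus in M and 2.23 and 5.18 TPM in MR. The ADP/ATP carriers of the inner mitochondrial membrane, Slc25a4 and Slc25a5, were both higher, with 113 and 356 TPM in M and 552 and 1259 TPM in MR, and Slc25a31 had no locus. Among the porins of the outer membrane, Vdac1 was higher, with 133 TPM in M and 410.04 TPM in MR, while Vdac2 (264 and 477 TPM) and Vdac3 (120.1 and 130.2 TPM) stayed within the limit. Nme6 was the gene that was lower, with 14.8 TPM in M and 6.51 TPM in MR. The loci of Ak6 and Nme2 also covered another gene.

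Most genes of AMP sensing were within these limits, as were most genes as a whole. The 8 measured genes cover AMP-activated protein kinase, its activating kinase Stk11 and AMP deaminases. Of these, 1 (12.5%) was higher, 1 (12.5%) lower and 6 within the limit, beside 21.3% higher and 13.2% lower of all genes. Their median log2 ratio was 0.13 and became -0.03 with median-of-ratios scaling. The catalytic subunit Prkaa1 had 27.1 TPM in M and 22.3 TPM in MR, and the regulatory subunit Prkag1 had 36.0 and 35.5 TPM. Prkag2, another AMP-binding regulatory subunit, was higher, with 6.90 TPM in M and 33.0 TPM in MR. Ampd3, an AMP deaminase, was lower, with 46.6 TPM in M and 16.4 TPM in MR, whereas Ampd2 had 14.9 and 16.6 TPM.

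**Figure D4:**
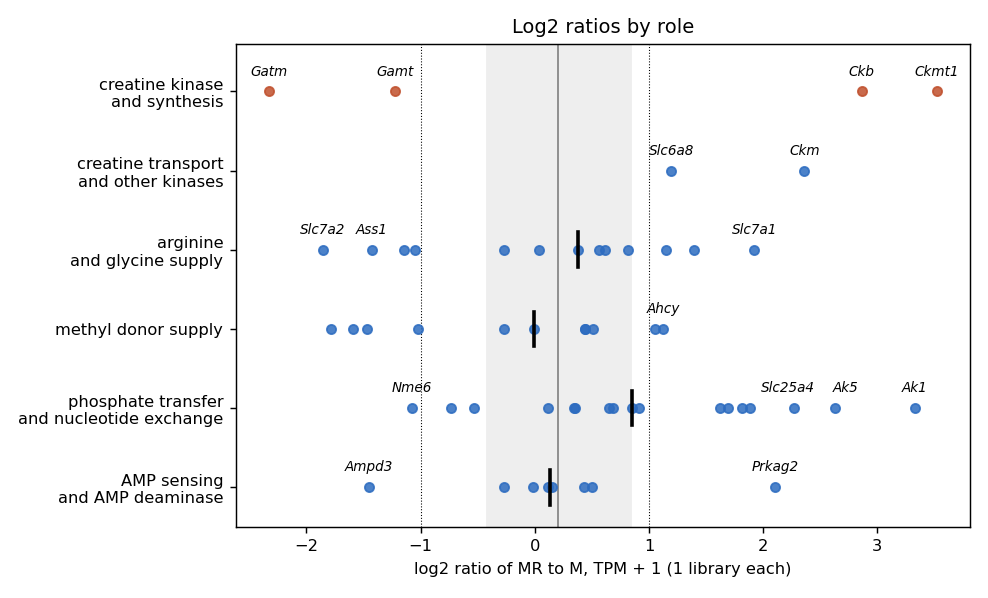
Log2 ratio of MR to M (TPM + 1, 1 library each) for each measured gene, in rows by role, with Ckb, Ckmt1, Gatm and Gamt in the top row. Short black bars are medians of lists with more than 4 genes, dotted lines a log2 ratio of 1 in either direction, the grey line the median of all genes (0.21) and the grey band their middle quartiles (-0.42 to 0.84). The kinases and the synthesis enzymes lie outside the dotted lines on opposite sides, and the phosphate transfer row has its median at 0.85.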

How the data were processed

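The authors trimmed adaptors with Trim Galore, aligned paired reads of 150 bases to GRCm38 (UCSC mm10) with HISAT2 and ran StringTie on GENCODE vM27. FastQC and SAMtools are also named in the submitters' notes, and versions are not given in the sources used here. The deposited coverage is a read depth per base (signal), and the deposited FPKM is scaled by length and library. The deposited TPM column, entered as a score because it sums to 1000000 over the assembled loci alone and to more over all entries, was used for the loci only.

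Entries with gene names hold GRCm39 positions and were not used. For each assembled locus, exon bases of GENCODE vM21 (GRCm38) genes inside it were counted, on its strand or, where it has none, on both, and the gene with the highest number (minimum 50) received the locus. This placed 15665 of 19422 loci of M (95.4% of TPM) and 16523 of 19922 of MR (96.9%). A locus that also covered 50% or more of a second coding gene's exons was called shared (338 genes). A gene inside such a locus was given no value if it also received a locus in a library (116 genes). Without one, it was counted as having no locus. TPM was summed per gene, and a gene without a locus was set to 0. The assignment was tested on simulated loci that each spanned nearly a whole coding gene on its own strand. Split, partial and strandless loci were not simulated. Aligned bases were read from the commonest coverage/FPKM ratio, above an FPKM of 5. No p-value was computed, since each condition has 1 library.

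The genes and lists were chosen with earlier results of these data known. Genes named in the text are the 4 genes, those of the lists and markers (some list members, counted in the totals, are not reported here by name), the 3 nearest in level to each and the genes above Ckb in MR. Scripts ran in Python 3.11.15 with scipy 1.17.1, pandas 2.3.3, numpy 2.4.6 and, for plots, matplotlib 3.10.9. Alternatives were a pseudocount of 0.1, FPKM, coverage per aligned Gb, median-of-ratios scaling, TPM without mitochondrial and the 20 most abundant genes, a minimum of 1 exon base, 1 locus per gene and other filters and limits.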

Additional observations from a re-analysis of the deposited data

How the results depend on the processing

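A value counted as moved when it left a 95% counting interval around its main value (for lists an order-statistic interval, or the full range below 6 genes). A count of genes moved when the change exceeded 1.5 times. For Ckb, Gatm and Gamt the interval from read pairs was shifted so that its estimate became the main log2 ratio. Without the shift it was 2.77 to 2.85 for Ckb and -4.35 to -3.06 for Gatm, and neither held the main value. In all, 81 alternative values were computed, of which 68 did not move and 13 moved. The median of 1 list, AMP sensing, changed sign, from 0.13 to -0.03 with median-of-ratios scaling, and no other log2 value did. Ckb, at 2.86, was 2.80 with FPKM and 2.82 with coverage per aligned Gb. It was 2.67 with median-of-ratios scaling over 11854 genes and 2.76 when mitochondrial genes and the 20 most abundant ones were left out. These values lay outside the narrow shifted interval of 2.82 to 2.90, while the unshifted interval of 2.77 to 2.85 held those with FPKM and coverage. Ckmt1, at 3.52, was 6.73 with a pseudocount of 0.1 and 2.502 with FPKM and with coverage, since with 0 in M the value depends on the pseudocount. Gatm, at -2.32, was -2.97 with 1 locus per library and -3.00 with loci weighted by exon bases, the latter chosen after the data were seen. Gamt ranged from -1.41 to -1.16 over 8 alternatives. The 2858 higher and 1781 lower genes became 1599 and 981 with at least 10 TPM, and 956 and 520 with a log2 limit of 2. Median-of-ratios scaling lowered the median of all genes by 0.18 on the log2 scale, to 0.03, and the share of called genes that were higher from 61.6% to 53.0%, while the 4 genes kept their directions and stayed past the limit of 1. No paired analysis was possible because each condition has 1 library, and leaving out a library was not possible either. The spread between repeated cultures cannot be estimated.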
